A study of Drosophila melanogaster with 2 samples.

Results

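The 386 regions described here are peaks of the Drosophila zinc finger protein CG6654 that lie between annotated genes and away from protein-coding start sites. They were chosen by measured values and by position, from the 2962 peaks that the authors kept as reproducible between replicates by the irreproducible discovery rate (IDR). A peak was selected by a signal value under 388, by a summit inside no annotated gene, and by a summit more than 500 bp from every start site of a protein-coding gene. The peaks are 13.0% of the IDR peaks and 14.5% of the 2666 IDR peaks under that signal limit. Another 46 intergenic peaks away from start sites reached or passed the limit and are called the stronger intergenic peaks below.

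CG6654 was fused to enhanced green fluorescent protein at its C terminus in flies of 1 transgenic line, and chromatin from whole embryos of both sexes at 0 to 12 h of development was precipitated with an antibody to GFP and sequenced (ChIP-seq). There was 1 group, with biological replicates numbered 1 and 3, and no second genotype, stage or treatment. Every value is therefore an average over cell types and over stages from the first nuclear divisions to organ formation, and binding in few cells cannot be told apart from weak binding in many. A control experiment named in the labels was not analysed here, and the lists give no read totals, so the depth of the libraries is unknown.

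CG6654 is a ZAD protein, one of a large family in insects in which a dimerising domain at one end, the zinc finger-associated domain, is joined to an array of C2H2 zinc fingers that reads DNA. Intergenic DNA between developmental genes of the fly holds many enhancers, the elements that switch genes on in given cells, as well as insulators and Polycomb response elements.

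A position weight matrix was built from the summits of the 296 IDR peaks at or above the signal limit, which hold none of the 386 peaks. It has 19 columns, starts near ACAGTTTG and ends near AGCCACTG. A match stood in the 100 bp around 21 of the 386 summits (5.44%), against 6.41% of the 2666 IDR peaks under the limit, none of which trained the matrix. The stretches below show 6 of these matches, a sequence that this small part of the intergenic peaks has in common with some of the strong peaks. Each is read 5′ to 3′ from the RefSeq Release 6 genome (dm6 coordinates) on the strand of the match, with the match in capitals and 15 bases of context on both sides.
CG5386 peak, chr3R:22342889-22342937, minus strand: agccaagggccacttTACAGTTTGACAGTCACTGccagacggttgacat
SoxN peak, chr2L:8813947-8813995, plus strand: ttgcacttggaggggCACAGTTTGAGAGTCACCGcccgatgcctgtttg
caps peak, chr3L:13226592-13226640, minus strand: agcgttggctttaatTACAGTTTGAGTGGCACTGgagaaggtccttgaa
how peak, chr3R:22040661-22040709, minus strand: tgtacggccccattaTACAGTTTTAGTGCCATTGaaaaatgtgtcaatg
Doc2 peak, chr3L:9027084-9027132, plus strand: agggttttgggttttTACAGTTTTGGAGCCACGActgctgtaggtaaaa
ImpE1 peak, chr3L:8369604-8369652, plus strand: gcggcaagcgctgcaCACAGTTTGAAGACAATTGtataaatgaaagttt

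The other 365 summits held no match. The summit windows of 4 of them are shown as examples, each 100 bases of the plus strand of the same genome with the summit near the middle. Capitals mark runs of 8 or more A or T bases, which are common at these summits and are counted further on.
tara peak, chr3R:16221867-16221966: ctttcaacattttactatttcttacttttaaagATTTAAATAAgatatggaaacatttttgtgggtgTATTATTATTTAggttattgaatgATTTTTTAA
foxo peak, chr3R:14053547-14053646: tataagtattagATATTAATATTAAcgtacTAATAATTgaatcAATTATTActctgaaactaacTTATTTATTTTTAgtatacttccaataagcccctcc
bin peak, chr3L:6989359-6989458: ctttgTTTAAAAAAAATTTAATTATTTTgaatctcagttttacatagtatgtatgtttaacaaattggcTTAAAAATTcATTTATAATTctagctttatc
CG43131 peak, chr3R:5113221-5113320: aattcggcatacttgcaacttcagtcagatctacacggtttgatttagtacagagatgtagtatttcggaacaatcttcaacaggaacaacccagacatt
The windows of tara, foxo and bin are broken up by such runs, and the window of CG43131 has none.

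Signal values of the 386 peaks ran from 74.88 to 387.1, with a median of 106.2 and a middle range, which holds the central 50% of peaks, of 87.1 to 150.3. The signal value is the authors' score for each peak, and its scale is not stated. These values chose the peaks and are given as a description. The 3 peaks just under the signal limit had values of 387.1, 374.3 and 370.9, and the 3 intergenic peaks just above it had 388.6, 389.1 and 401.1, so the limit cuts a continuous series. The same holds for distance. The nearest peaks kept lay 502, 503 and 503 bp from a start site, and the nearest ones left out by distance lay 498, 496 and 492 bp away.

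In the list of replicate 1, a called region covered the summit of 365 of the 386 peaks, and in the list of replicate 3 one covered 384. Both lists covered 363 summits (94.0%), and no summit lacked a region in both. For the 2280 other IDR peaks under the limit the share covered in both was 89.7%. The replicate lists hold background regions as well as peaks, per their names, so such coverage is a weak criterion. A stricter one asked for a reciprocal overlap of at least 50% with a region ranked high enough to be among as many regions as the IDR set holds. By this rule 166 of the 386 peaks (43.0%, 95% Wilson interval 38.2% to 48.0%) were matched in both replicates, against 47.6% of all IDR peaks under the limit and 52.1% of all IDR peaks. A further 91 were matched only in replicate 1, 84 only in replicate 3 and 45 in neither.

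The matched share was 48.4% for the 1087 peaks within 500 bp of a start site and 48.3% for the 1084 deep intronic peaks. Both classes were under the same signal limit, and the share was 91.3% for the 46 stronger intergenic peaks. In that order their median signal values were 129.2, 117.4 and 689.1, against 106.2 for the 386 peaks. The shares were not compared at equal signal. The stronger peaks were chosen by high signal, and the rule asks for a high rank by signal. Their share is thus largely set by that choice and is a description. The replicates differed in the matched share. A top-ranked region of replicate 1 matched 66.6% of the intergenic peaks, 58.4% of those near start sites and 62.4% of the deep intronic ones, so the intergenic peaks were highest there. In replicate 3 the shares were 64.8%, 79.8% and 75.2%, and the intergenic peaks were lowest. The overlap rule moves the share matched in both: with any overlap of at least 1 bp it was 61.7%, and with all regions of both lists it was 76.9%. The IDR set was made from both replicates, so none of these shares is independent evidence of reproducibility.

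At the summit, the signal value of replicate 1 had a median of 47.4 (13.2 to 185.9) and that of replicate 3 a median of 63.1 (20.8 to 246.5). The rank of the covering region, counted from the strongest, had a median of 1684 in replicate 1 and 2010 in replicate 3. Over the 363 peaks covered in both replicates the values had a Spearman correlation of 0.45, and over the 2046 other such peaks under the limit it was 0.61. These correlations are descriptions, and the sets of peaks were not matched for signal. The points share 2 libraries and the selection by IDR, and a few share a covering region, since 18 of the 386 peaks overlap another of them. Where a pair of called regions overlapped the same peak, their summits lay a median of 30 bp apart, and within 100 bp for 275 of 297 peaks.

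**Figure D1:**
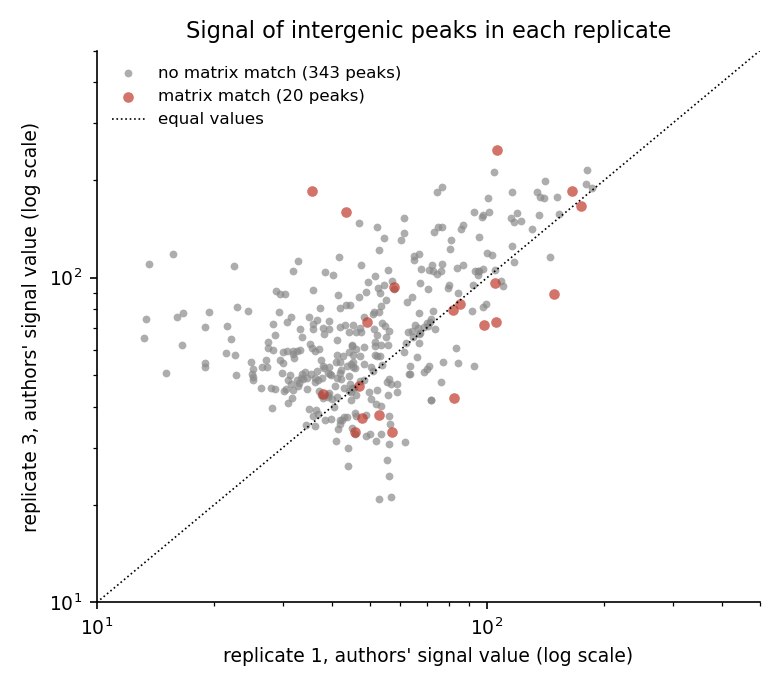
Each point is 1 of the 363 intergenic peaks whose summit was covered in both replicates, with the authors' signal value in replicate 1 and in replicate 3 on log axes. Red points hold a match to the matrix, and the dotted line marks equal values. Most points lie above the line, where the medians are 47.4 and 63.1, and the scales of the 2 lists need not be equal.

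The strongest of the peaks lay at chr3R:16221771-16221984, 3734 bp upstream of tara, which encodes taranis, a nuclear protein linked to the trithorax group and the cell cycle. Its combined signal value was 387.1, with 180.6 in replicate 1 and 214.5 in replicate 3. A second peak upstream of tara, 1145 bp from its start, had 341 in the combined list, 151.1 in replicate 1 and 177.1 in replicate 3. Both ranked high in each library, at 262 and 338 in replicate 1 and at 320 and 422 in replicate 3. The peak beside CG43131, shown above, had 374.3 in the combined list, 179.6 in replicate 1 and 194.5 in replicate 3.

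Other strong peaks lay upstream of regulators. The peak 3348 bp upstream of foxo, the forkhead factor of insulin signalling, had 140.8 in replicate 1 and 198.7 in replicate 3. The peak 1213 bp upstream of bin, the forkhead factor of the visceral mesoderm, had 135.6 in replicate 1 and 156.2 in replicate 3. A peak between nej, the fly CBP acetyltransferase, and the head gap gene btd had 115.7 in replicate 1 and 183.1 in replicate 3, and it lay 658 bp upstream of nej. These 3 peaks were covered by regions of similar rank in both libraries, between 352 and 517.

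Some strong peaks rested more on 1 library. The peak 4966 bp from tal-AA, 1 of the small peptides of the tarsal-less transcript, had 76.5 in replicate 1 and 189.9 in replicate 3, at ranks 877 and 377. The peak 1275 bp upstream of the rhodopsin gene Rh5 had 134.5 in replicate 3, and no region of replicate 1 covered its summit. In the opposite direction, the peak 11650 bp upstream of SoxN, a Sox factor of the neuroectoderm, had 148.5 in replicate 1 and 88.95 in replicate 3. Its combined value was 233.9, below those of the 20 strongest peaks. The 20 strongest peaks also included peaks nearest to ImpE1, cpo, wb, l(3)neo38, CG7560, CG33453, CG34459, CG5386 and Hex-A, with combined values from 269.1 to 370.9.

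The median distance from a summit to the nearest protein-coding start was 3824 bp, with a middle range of 1575 to 8915 bp. It passed 1000 bp for 329 peaks (85.2%), 5000 bp for 157 (40.7%) and 10000 bp for 88 (22.8%). The nearest start pointed away from the peak, so that the peak lay upstream of it, in 266 cases (68.9%). Neighbouring genes were divergent around 149 peaks, tandem around 174 and convergent around 63. The rule leaves out summits inside genes, so a peak downstream of its nearest start must lie beyond the end of that gene. No share over eligible sequence was computed for side or orientation, and these counts show no preference of position. A start site of a noncoding gene lay within 500 bp of 26 summits (6.74%), and 24 of those genes were classed as noncoding RNA, 1 as snoRNA and 1 as tRNA. Only 1 summit fell in an annotated transposable element. The median share of soft-masked bases at the summit was 19%, and over the genome it was 20.9%. Signal and distance had a Spearman correlation of -0.11 over the 386 peaks.

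The farthest peak lay 44350 bp from any protein-coding start, at chr3L:18348575-18348958, in the interval between the death genes grim and rpr. Its signal value was 113.8 in the combined list, 56.6 in replicate 1 and 46.9 in replicate 3. The next farthest lay 39689 bp from CG6414, and a pair of overlapping peaks lay 39312 and 39076 bp from CG6244, on the side of comm, a regulator of axon crossing at the midline. That pair shares 1 region in replicate 3, with a value of 46.45, and is not 2 separate measurements there.

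The peaks lay in longer intergenic stretches than most. A stretch is the gap between neighbouring annotated genes of any kind. Its median length was 9807 bp around the 386 peaks, and over all 12296 stretches of the genome it was 473 bp. A long stretch offers more sequence that meets the rule, so counts were also set against eligible sequence, which is the intergenic sequence more than 500 bp from every protein-coding start. Over 39.82 Mb of it there were 9.69 peaks per Mb. In stretches under 10 kb there were 198 peaks, or 18.3 per Mb. In stretches of 10 to 50 kb there were 175, or 9.98 per Mb, and in stretches over 50 kb there were 13, or 1.14 per Mb. Per unit of sequence the longest gaps therefore held the fewest peaks. The eligible sequence includes 2.55 Mb on Y, which held no peak. Mappability was not examined.

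Arm 3L carried 133 of the 386 peaks (34.5%), and 23.2% of the eligible sequence. Its density was 14.4 peaks per Mb, against 11.0 on 2L, 10.5 on 3R, 7.38 on X and 6.71 on 2R. Arm 3L held 21.6% of all IDR peaks under the signal limit. Chromosome 4 had 4 of the peaks on 0.253 Mb of eligible sequence, too few for a useful density. Among the peaks on 3L, 86 were matched by a top-ranked region of replicate 1 and 91 by one of replicate 3.

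Some peaks lay in groups, and 8 of the 15 groups of 4 or more were on 3L. Groups were formed after the data were seen, by joining neighbouring summits under 20 kb apart, which left 176 peaks alone and put 82 peaks into those 15 groups. The largest groups had 10 peaks each. The first spanned 41849 bp between NijA and CG12523, with signal values from 79.5 to 321.5, and 4 of its peaks were matched in both replicates. The second spanned 59606 bp from hng3 to Sf3b3, with values from 76.9 to 147, and 4 were matched in both replicates.

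Across the region of the cell death genes on 3L, which encode antagonists of the inhibitor of apoptosis proteins, 9 peaks lay between hid and rpr. The peak nearest to hid, 7407 bp upstream of it, had 134.3 in the combined list, 77.27 in replicate 1 and 54.84 in replicate 3. Further along, 3 peaks within a few kilobases between CG7320 and CheA75a had 174.6, 148.4 and 143.3 in the combined list, from 67.07 to 99.65 in replicate 1 and from 74.88 to 83.26 in replicate 3. The highest of the 9, at chr3L:18281276-18281659 and 12794 bp from CG5103, had 179.4 in the combined list, 97.88 in replicate 1 and 81.34 in replicate 3. All 9 were covered in both libraries, and none held a match to the matrix.

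The Doc genes encode T-box factors of the amnioserosa, dorsal epidermis and heart, and 6 peaks lay around them. Between Doc2 and Doc1 there were 4, with combined values of 129.4, 86.24, 75.12 and 101. In replicate 1 these had 54.63, 57.22, 25.18 and 50.88, and in replicate 3 they had 70.96, 33.52, 52.32 and 51.77. The order of the peaks differed between the libraries, and the only one with a match to the matrix, at chr3L:9026903-9027286, was the highest of the 4 in replicate 1 and the lowest in replicate 3.

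Upstream of robo2, a receptor for the midline repellent Slit, 5 peaks lay over 33534 bp on 2L. The genes CG43401 and CG43402 lie among them. Only 2 of the peaks had robo2 as a neighbouring gene, and the stronger of those had 129.5 in the combined list. The highest of the 5, at chr2L:1433803-1434000, lay between CG43401 and CG43402. It had 279.6 in the combined list, 119.3 in replicate 1 and 158.4 in replicate 3. The other 4 had 91.54 to 146.6 in the combined list, 44.57 to 57.14 in replicate 1 and 47.08 to 97.73 in replicate 3. The same peak was thus the highest in both libraries. Groups of 4 or 5 also lay upstream of chinmo, a BTB zinc finger factor of neuronal timing, near aop, an ETS repressor, near noc, a zinc finger factor of the head and appendages, near tara, and between Ids and sty, the receptor tyrosine kinase inhibitor sprouty. The groups near robo2 and tara had 4 peaks each that were matched in both replicates, and the group near aop had 0.

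**Figure D2:**
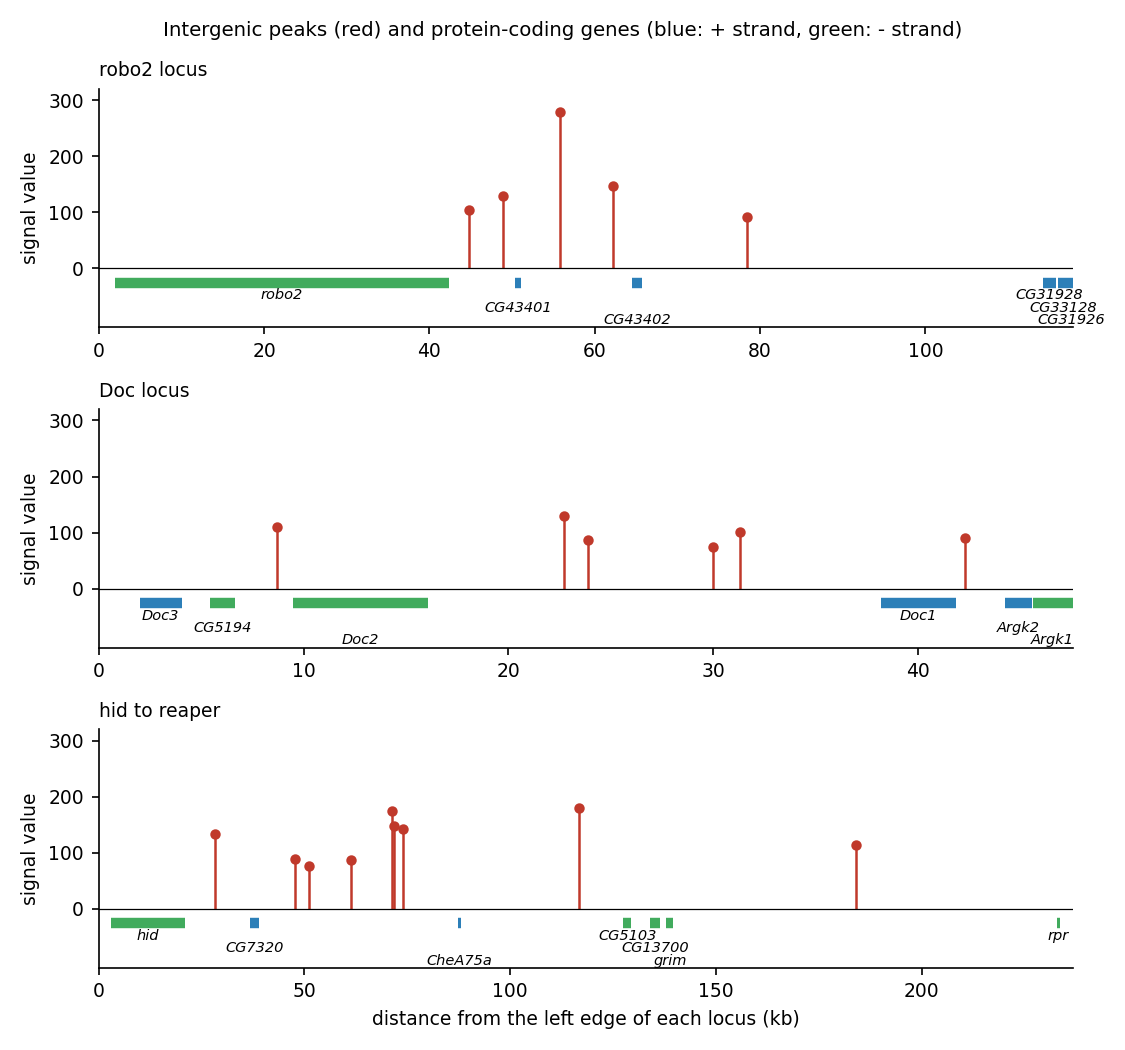
Each red line is an intergenic peak, with its authors' signal value in the combined list on the vertical axis and its distance in kb from the left edge of the locus on the horizontal axis. Bars under the axis are protein-coding genes, blue on the plus and green on the minus strand. The 5 peaks at robo2, 6 at the Doc genes and 9 between hid and rpr lie spread along each locus, with a closer group of 3 between CG7320 and CheA75a.

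The matrix was tested at the 386 summits against a window of the same length centred 250 bp away on a side set by the parity of the start coordinate. A match was a score above that exceeded by 1% of flank windows of other IDR peaks. Matches stood in 21 summit windows (5.44%, 95% Wilson interval 3.59% to 8.17%) and in 7 flank windows (1.81%). The share at the intergenic summits is near the 6.41% of all IDR peaks under the limit. The excess of summits over flanks passed the exact McNemar test (two-sided p = 0.01254, 21 peaks with a match at the summit only and 7 in the flank only). The test runs over peaks of these libraries, and peaks are not biological replicates.

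That call depends on the setting. It was lost with top-ranked peaks of replicate 3 alone (summit share 4.46%, exact p = 0.06357), in windows of 50 bp (3.63%, exact p = 0.06357), and with a threshold exceeded by 0.1% (1.04%, exact p = 0.375) or 5% (exact p = 0.5601) of flank windows. It was kept with peaks of replicate 1 alone (4.46%, exact p = 5.722e-06) and with the flank on the other side, where 1 flank window held a match (0.259%, exact p = 1.097e-05). In a setting added after the data were seen, the 5 peaks within 400 bp of a summit that trained the matrix were left out, and the call was kept (5.51% against 1.57%, exact p = 0.005925). With such peaks left out, the list of replicate 3 alone passed as well (4% against 1.23%, exact p = 0.03516). Of the 21 matches, 17 lay within 20 bp of the summit, and the median offset was 15 bp. The leading word of the matrix, CAGTTTGA, stood in 13 summit windows and 5 flank windows of the 386 peaks.

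The share with a match was 2.76% for peaks within 500 bp of a start site and 9.69% for deep intronic peaks. The intergenic peaks exceeded the first by 2.68 percentage points (95% Newcombe interval 0.497 to 5.53). Their flank windows also held more matches, 1.81% against 0.276% near start sites, and the difference between classes over their flanks was not tested. Against the second their difference was -4.25 points (interval -6.91 to -1.07). The interval against peaks near start sites reached 0 in each of the 4 alternatives, among them the lists of each single replicate, where the difference was 1.53 to 1.87 points. The difference from deep intronic peaks kept its sign in all 4, with intervals under 0, and was -8.13 points among the stronger 50% of peaks. The stronger intergenic peaks had matches in 60.9% (28 of 46), but they were among the peaks that trained the matrix, so their share is a description. These intervals cover counting error over peaks, and the classes differ in median signal value.

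**Figure D3:**
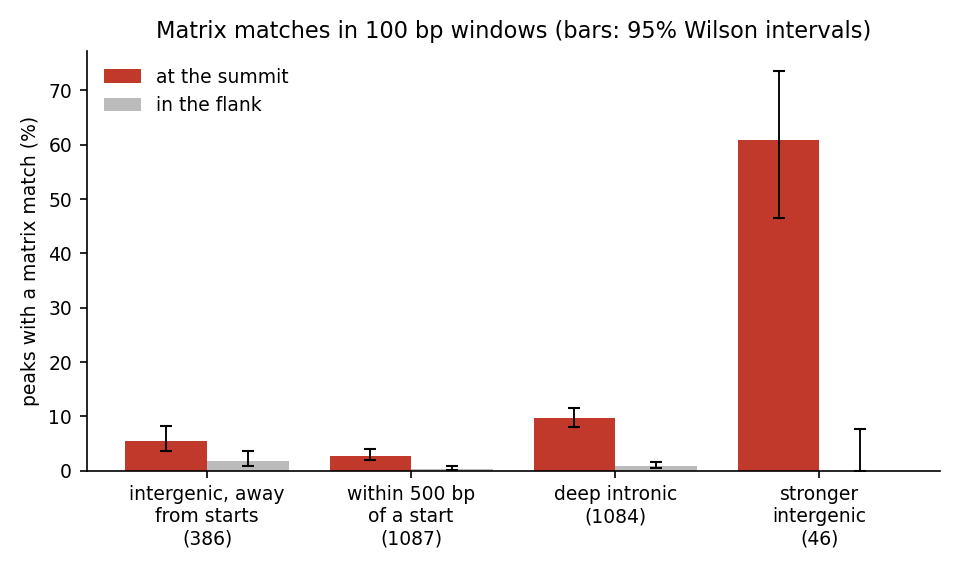
Bars give the percentage of peaks with a match to the matrix in the 100 bp at the summit (red) and in the flank (grey), with 95% Wilson intervals and the number of peaks under each class. The 386 intergenic peaks stand at 5.44% and 1.81%, and the 46 stronger intergenic peaks, which helped to train the matrix, at 60.9%.

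The highest matrix scores were at the peaks of CG5386, SoxN, CG4476, CG34459 and CG12516. Their signal values spanned most of the range. The CG5386 peak, at chr3R:22342750-22343066, had 165.6 in replicate 1 and 185.5 in replicate 3. The CG4476 peak, at chr3L:9217669-9218052, had 46.85 in replicate 1 and 46.38 in replicate 3. Other matches lay near caps, a cell surface protein of axon targeting, with 82.33 in replicate 1 and 42.65 in replicate 3, and near fng, the glycosyltransferase that modifies Notch, with 38.09 and 43.79. One also lay near how, an RNA-binding protein of muscle and tendon, with 49.12 in replicate 1 and 73.04 in replicate 3.

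Peaks with a match had a median signal value of 157.1 and those without one 104.4. Among those with a match 7 of 21 (33.3%) were matched by top-ranked regions of both replicates, and among those without 159 of 365 (43.6%). Summit windows with a match had a GC content of 47.6% ± 6.68 (SD, n = 21 peaks) and those without one 33.4% ± 8.53 (SD, n = 365 peaks). The match itself is part of the first window. In the flanks the order was the reverse, with 38% ± 9.29 beside peaks with a match and 44.7% ± 10.02 beside the others.

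The summits as a whole were poor in G and C. GC content averaged 34.2% ± 9.03 (SD, n = 386 peaks) at the summit and 44.3% ± 10.1 in the flank. It was lower at the summit in 283 peaks, higher in 94 and equal in 9 (exact sign test, two-sided p = 4.103e-23), and the mean difference was -10.1 percentage points. The difference stayed between -7.60 and -11.2 points in all 6 alternatives. Similar dips stood at peaks within 500 bp of a start site (33.9% against 43.3%) and at deep intronic peaks (34.1% against 43.9%). The stronger intergenic peaks had 39.5% at the summit and 38.3% in the flank (exact sign test, p = 0.4514). Runs of 8 or more A or T bases, which were counted after the data were seen, stood in 264 summit windows (68.4%) and 187 flank windows (48.4%), and in 71.8% of all IDR summits. How base composition bears on signal was not tested, and no control library was used here against which recovery of such DNA could be measured.

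**Figure D4:**
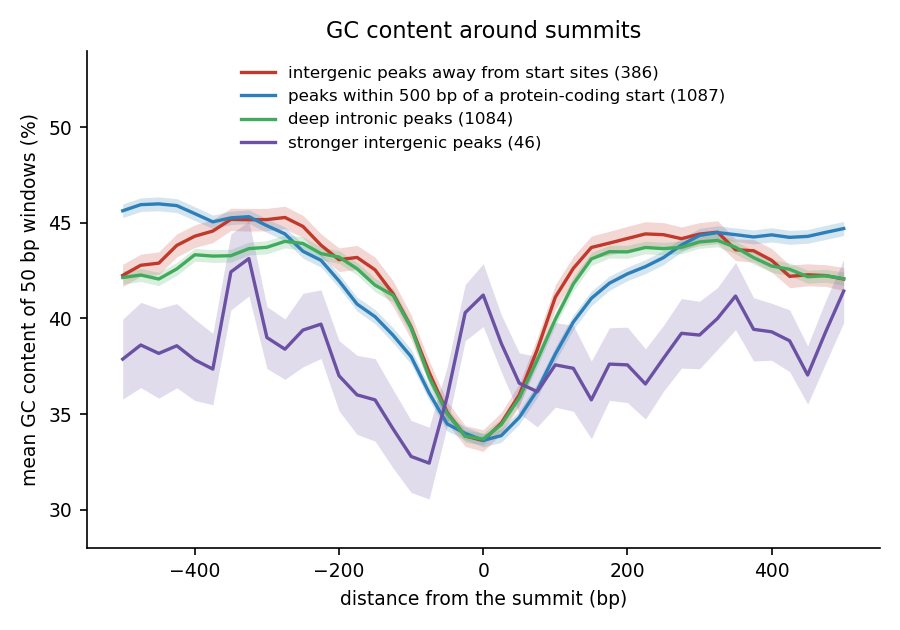
Lines give the mean GC content of 50 bp windows at each distance from the summit for 4 classes of peak, and bands give the standard error over peaks. The 386 intergenic peaks (red) follow the promoter-near and deep intronic classes down to about 34% at the summit, and the 46 stronger intergenic peaks (purple) rise there to about 41%.

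A list of 12 short words was searched on both strands, and each word was tested at summits against flanks. Most are known for factors of the fly embryo or for promoters, and the list also holds a CA repeat and a run of A. Of these words, 2 (16.7%) passed a Benjamini-Hochberg adjusted threshold of 0.05 in exact McNemar tests. The TATA box word TATAAA stood in 80 summits and 37 flanks (20.7% against 9.59%, exact test, adjusted p = 0.0005587), and in 20.9% of all IDR summits. It contains A and T alone, and the same summits are poorer in GC than their flanks. The call was lost among the stronger 50% of the peaks (exact test, adjusted p = 0.2181). The word CACGTG, the E-box of Myc, stood in 0 summits and 9 flanks (exact test, adjusted p = 0.02344), and this call was lost in all 5 alternatives.

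The other 10 words did not pass. The core of CTCF, AGGTGGCG, stood in 5 summits and 0 flanks (exact test, adjusted p = 0.1591), and the GAGA factor word GAGAGAG in 3 summits and 10 flanks (exact test, adjusted p = 0.1846). CTCF is an insulator protein, and GAGA factor opens chromatin at many promoters. The Zelda word CAGGTAG stood in 2 summits and 2 flanks. The words TATCGATA, of Dref and BEAF-32, and GGTCACAC, of Motif 1, were in no window of either kind. A word that is missing from a window of 100 bp tells nothing about binding of its factor.

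A gene was counted as beside a peak when it was the nearest protein-coding gene on the left or on the right of the summit. In this sense 506 of 13968 protein-coding genes (3.62%) were beside at least 1 of the 386 peaks, and 46 were beside 3 or more. Genes with long gaps were beside peaks more often. Among the 905 genes with a gap of 20 kb or more to a neighbouring protein-coding gene, 198 (21.9%) were beside a peak. The median longest gap of all genes was 548 bp. Gap length was added after the data were seen, and the cut at 20 kb does not equalise it within the long-gap genes. The gene lists below were chosen with earlier results of these data known, so their shares are descriptions.

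Developmental regulators, a list of homeodomain and other transcription factors, had 24 of 61 genes beside a peak (39.3%), against 3.62% of all protein-coding genes. The list had a median longest gap of 13612 bp, against 548 bp for all genes. Of its 29 genes with a gap of 20 kb or more, 17 were beside one, against 21.9% of all genes with such a gap. Those with the strongest peaks were foxo, bin, aop and SoxN. The aop peak, at chr2L:2180146-2180316, had 250.6 in the combined list, 92.61 in replicate 1 and 159.8 in replicate 3. Among the stronger 50% of the peaks the share of the list was 21.3%, beside 2.15% of all genes.

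The segmentation list, of genes that divide the embryo into segments, had 11 of 27 beside a peak (40.7%), against 3.62% of all genes. The list had a median longest gap of 17686 bp, against 548 bp for all genes. Of its 13 genes with a long gap 9 were beside one, against 21.9% of all genes with such a gap. Among the 11 were the pair-rule genes hry, odd and opa and the gap genes btd, kni and ems. The maternal gene bcd and the segment polarity genes wg and ptc were among them too. The strongest peak beside wg, the Wnt ligand wingless, lay 11003 bp from its start at chr2L:7295964-7296347, between it and Wnt4. It had 129.6 in the combined list, 53.61 in replicate 1 and 81.85 in replicate 3. The stronger of the peaks beside oc, or orthodenticle, had 144 in the combined list, 83.44 in replicate 1 and 60.78 in replicate 3. Several of these genes stand in more than 1 list, and 1 peak can lie beside a gene on each side.

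The counts of the lists that follow are to be read beside the 3.62% of all protein-coding genes. Muscle and heart genes had 7 of 31 beside a peak, among them the actin genes Act57B and Act87E. Trachea and epithelium had 3 of 15, dorsoventral genes 4 of 22, endoderm, gut and fat body 3 of 21, and neural identity 5 of 31. In the neural list the stronger of the peaks beside pros, the homeodomain factor prospero, had 189 in the combined list, 72.35 in replicate 1 and 109.5 in replicate 3. Axon guidance and adhesion had 7 of 42, with 18w, robo2, caps and unc-5 leading. Signalling ligands and receptors had 5 of 37, namely Ser, ptc, Wnt4, wg and vn. Median longest gaps in this group of lists ran from 3966 bp (dorsoventral) to 12174 bp (axon guidance), against 548 bp for all genes.

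The Hox list had 1 of 8, abd-A, with a peak of 91.87 in the combined list, 33.19 in replicate 1 and 59.83 in replicate 3, 35617 bp from its start. In the list of Polycomb and trithorax group genes 3 of 27 were beside a peak (11.1%), against 3.62% of all protein-coding genes. One peak, 985 bp from ph-d and between it and ph-p, had 238.5 in the combined list, 94.63 in replicate 1 and 105.2 in replicate 3. Both genes encode the Polyhomeotic subunit of Polycomb repressive complex PRC1 and are a tandem duplicate pair, and whether reads there were placed uniquely was not tested. The third was Psc, a further PRC1 subunit, whose peak had 105.1 in replicate 3 and no covering region in replicate 1.

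The remaining lists held few or none. With 3.62% of all protein-coding genes beside a peak, low counts in short lists stand near that share. None of 92 cytosolic ribosomal protein genes, 30 cell cycle and replication genes, 56 ZAD and related zinc finger genes, 25 germline and RNA regulators or 23 insulator and architectural genes was beside a peak. Median longest gaps of the lists with none ran from 206 bp (ZAD) to 650 bp (cell cycle). Heat shock and chaperone genes had 1 of 22, the co-chaperone stv, 525 bp from a peak with 117 in replicate 1 and 148.1 in replicate 3. Ecdysone response had 1 of 22, the steroid hydroxylase gene sad. Among genes with a gap of 20 kb or more, those beside a peak were 5 of 17 (29.4%) in the axon guidance list, 2 of 7 (28.6%) in the trachea list, 4 of 12 (33.3%) in the signalling list and 2 of 5 in the muscle list. They were 3 of 5 in each of the dorsoventral, neural and endoderm lists. In the Hox and ecdysone lists they were 0 of 4 each, and in the ribosomal protein list 0 of 7. In the lists of Polycomb and trithorax group genes, heat shock genes and germline regulators they were 0 of 2 each, and in the insulator list 0 of 1. The ZAD and cell cycle lists had no gene with such a gap. The counts are read beside the 21.9% of all genes with a long gap, many of them rest on few genes, and no list was tested.

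**Figure D5:**
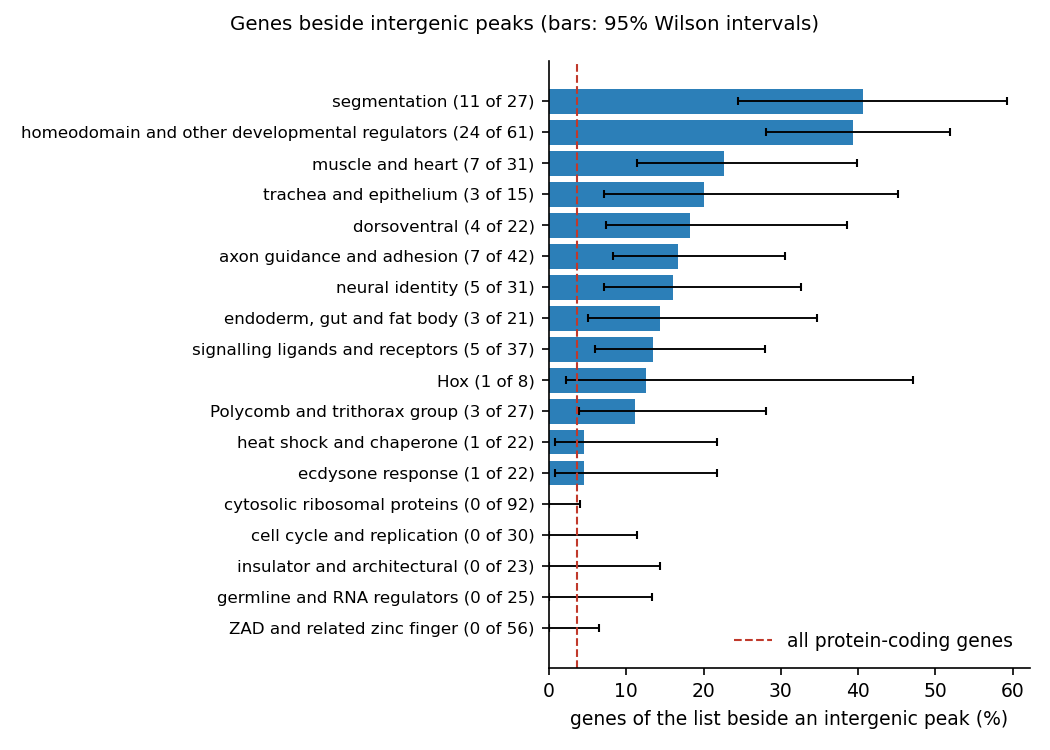
Bars give the percentage of each gene list beside at least 1 of the 386 intergenic peaks, with 95% Wilson intervals. Counts stand beside each name, and the dashed line marks the 3.62% of all protein-coding genes. The intervals treat genes as independent, though 1 peak can lie beside a pair of genes of the same list. Segmentation genes (40.7%) and developmental regulators (39.3%) stand highest, and 5 lists stand at 0. The lists were chosen with earlier results of these data known, and they differ in gap length.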

How the data were processed

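The authors' dm6 peak lists (narrowPeak format) were used: the IDR set and the unthresholded list of each replicate, whose regions are ranked here by the deposited signal value, a score of the authors with no stated scale. The deposited −log10 q-value was not used for any result. The IDR threshold, aligner and peak caller, with versions, were not given in the sources used here. Lists on dm3 were not analysed. Members and lists were chosen with earlier results of these data known.

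Summits were placed against Ensembl release 115 (BDGP6), with transposable elements left out, and sequence came from the RefSeq genome in the same coordinates. The signal of a replicate at a peak is that of the highest region covering the summit. The matrix was trained by iterated best matches, from the leading word of 8 bases, on peaks that hold no member, and its test was tested on simulated data. Tests over peaks were exact and two-sided. Those of the 12 words were adjusted by the Benjamini-Hochberg method. Named peaks are the 20 of highest signal, the 5 farthest from a start, the 5 of highest matrix score and, per list, up to 4 genes with the strongest peak; the loci, the other genes of lists and the matches near caps, how, fng, Doc2 and ImpE1 were named after their values were seen. Of list names, 25 matched through an older symbol and 9 did not match. Python 3.11.15, numpy 2.4.6, scipy 1.17.1, pandas 2.3.3 and matplotlib 3.10.9 were used.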

Additional observations from a re-analysis of the deposited data

How the results depend on the processing

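The number of intergenic peaks stayed within 329 and 515 under 7 alternatives, and lists of a single replicate gave 336 (replicate 3) and 493 (replicate 1). The share matched in both replicates was 57.0% among the stronger 50% of peaks, 61.7% with an overlap of 1 bp and 76.9% with all regions. The matrix share was 1.04% with the threshold exceeded by 0.1% of flank windows, 7.25% with that exceeded by 5%, 3.63% in 50 bp windows, and 4.46% in each single-replicate list (4% and 4.34% without peaks near training summits, a setting added after the data were seen). Its call was lost in the first 3 and in the full list of replicate 3, and kept in the other 5 alternatives and the 3 added later. The difference from peaks near start sites was 1.45 points with a start distance of 1000 bp, 2.98 among the stronger 50%, and 1.53 to 1.87 in the single lists, where each interval reached 0. The difference from deep intronic peaks was -4.77 to -4.09 points in the single lists, -5.72 with a start distance of 1000 bp and -8.13 among the stronger 50%. From stronger intergenic peaks it was -56.4 to -53.0 in the single lists. GC differences were -9.71 to -7.60 points in the single lists. The number of words called was 1 with a start distance of 1000 bp, in 200 bp windows and in each single list, and 0 among the stronger 50%. Genes beside a peak numbered 300 among the stronger 50%, and 459 and 628 in the single lists. The developmental regulators were at 21.3%, and at 39.3% and 45.9%, beside 2.15%, 3.29% and 4.5% of all genes. The cause of these changes was not tested, except that halving the peaks leaves fewer to lie beside genes. No paired analysis was possible because there is 1 group. Depth is unknown, and no interval covers the spread between embryos or libraries.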
